A study of Mus musculus with 21 samples.

Results

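The CpG-poor windows are the parts of the mouse autosomes in which few CpGs were seen in a bisulfite library of sperm nucleosomal DNA. Each autosome was divided into fixed windows of 100 kb, and a window was taken as CpG-poor if it held 150 to 350 listed CpGs, that is, CpGs with 1 or more reads. There were 6567 such windows among 23941 autosomal windows with a listed CpG, or 27.4%. They were set against 3966 windows with 500 to 700 listed CpGs, called comparison windows below. The series describes histones, their variants and modifications in spermatozoa and round spermatids of C57BL/6 mice, in 21 samples. The values here come from 1 library, made from mononucleosomes of swim-up spermatozoa, which micrococcal nuclease (MNase) releases by cutting the DNA between nucleosomes; the other 20 samples were not analysed here. There was no biological replicate, so no test between groups was made and no p-value is given. The mice were C57BL/6J by the protocol and C57BL/6 by the sample's label, and neither their age nor their number is given in the sources used here. The spread over the 19 autosomes and the 95% Wilson binomial intervals describe this library only. Intervals are given in parentheses after a level or share and cover counting error alone; they are too narrow, because the same molecule may have been read more than once and 1 read is counted at each CpG along it.

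In most of the mammalian genome the cytosines of CpGs are methylated, and CpGs are rare because methylated cytosine mutates readily to thymine. The exceptions are CpG islands, short CpG-dense stretches that are mostly unmethylated in germ cells and often lie at promoters. CpG-poor DNA is largely gene-poor and extends in long blocks between the CpG-richer, gene-rich parts of chromosomes. In sperm most histones are replaced by protamines, and the nucleosomes that remain have been linked to CpG-dense, unmethylated DNA. CpG-poor windows are mostly DNA outside such islands.

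The CpG-poor windows formed the main mode of the distribution of listed CpGs over windows. They held between 151 and 350 listed CpGs, with a median of 275 (quartiles 244 and 308), against a median of 598 in the comparison windows (quartiles 548 and 647). Neighbouring listed CpGs lay a median of 173 bp apart in CpG-poor windows and 75 bp apart in comparison windows. Since a CpG without reads is not listed, the count of listed CpGs depends on depth as well as on sequence. A negative binomial distribution fitted to the read numbers estimated that 25.8% of the CpGs of CpG-poor windows and 15.3% of those of comparison windows had no reads. Corrected in this way the windows would hold 371 and 706 CpGs on average, so the CpG-poor windows were also poor in CpGs on this estimate. A distance of 10 kb or more without a listed CpG was present in 168 CpG-poor windows (2.56%) and in 34 comparison windows (0.857%). Of all autosomal windows 511 (2.13%) had one, so the share in CpG-poor windows was near that of all windows.

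**Figure D1:**
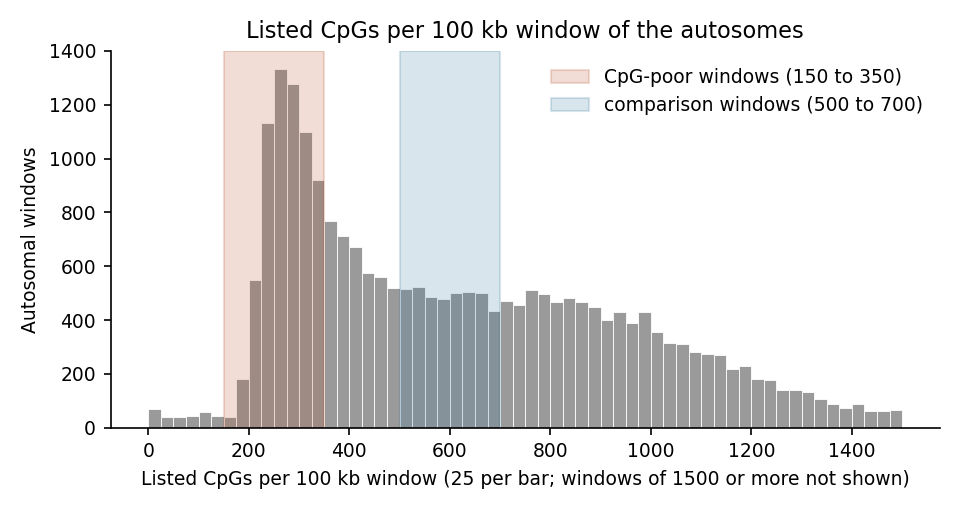
Number of autosomal 100 kb windows (vertical axis) by the number of listed CpGs they hold (horizontal axis, 25 CpGs per bar). The shaded ranges mark the 6567 CpG-poor windows, which hold the tallest bars, and the 3966 comparison windows, which lie on the flat part of the distribution.

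The number of listed CpGs chose the windows, so the values at the limits are given only as a description. No window held exactly 150 listed CpGs, and 31 held exactly 350. The 10 CpG numbers just inside the lower limit comprised 18 windows with a median level of 81.7%, and the 10 just outside it 15 windows with 83.6%. The 10 CpG numbers just inside the upper limit comprised 347 windows with a median level of 86.4%, and the 10 just outside it 303 windows with 86.1%. Reads per listed CpG were also close at the upper limit, with medians of 2.82 inside and 2.86 outside.

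CpG-poor windows were highly methylated, and more uniformly so than comparison windows. The level is the percentage of reads that were methylated, pooled over the listed CpGs with no more than 19 reads; 0.0697% of the CpGs of CpG-poor windows and 0.0579% of those of comparison windows had more and were left out. It was 84.7% in CpG-poor windows (84.7 to 84.8, from 4909451 CpG reads) and 78.8% in comparison windows (78.7 to 78.8, from 7601463 CpG reads). The order was the same on 19 of 19 autosomes, with 84.7% ± 0.967 in CpG-poor windows and 78.8% ± 1.06 in comparison windows (SD over autosomes). Single CpG-poor windows had a median of 85.6% with quartiles of 83.2% and 87.6%. Single comparison windows had a median of 84.3% with quartiles of 73.4% and 88.3%. The medians were thus closer than the pooled levels, and the groups differed mainly in the low tail. The SD between windows was 5.13 points in CpG-poor windows, where a window held a median of 738 CpG reads, and 12.4 points in comparison windows, where it held a median of 1909.

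A pooled level under 80% was found in 703 CpG-poor windows (10.7%) and in 1417 comparison windows (35.7%); of all autosomal windows 38.1% were that low. The high end went the other way, since 6.58% of CpG-poor windows and 13.7% of comparison windows had a level over 90%, against 8.92% of all autosomal windows. CpG-poor windows were thus rarer at both ends.

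**Figure D2:**
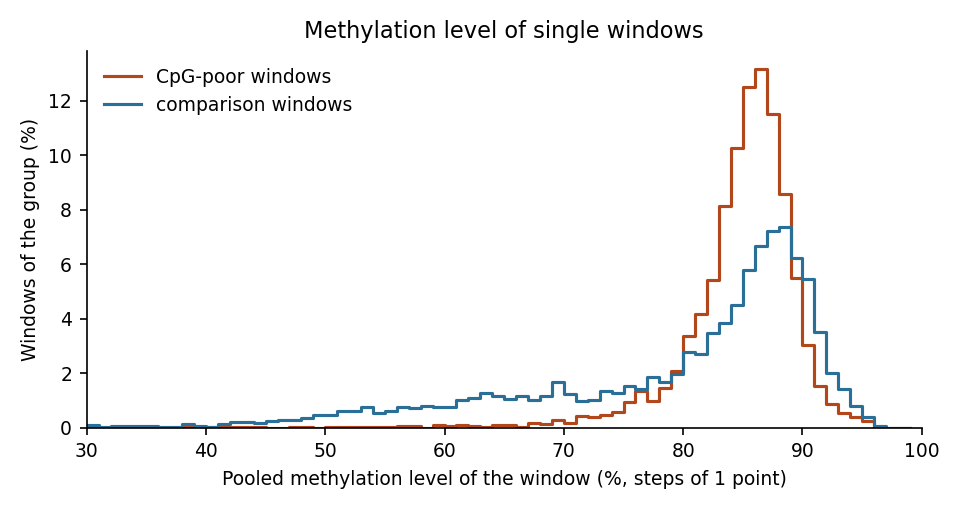
Pooled methylation level of single windows in steps of 1 percentage point (horizontal axis) and the share of each group's windows (vertical axis). CpG-poor windows gather around their median of 85.6%, while comparison windows reach further down, with a lower quartile of 73.4%; their upper quartile is 88.3%, against 87.6% in CpG-poor windows.

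CpG-poor windows carried fewer reads per CpG, which is in part a consequence of how they were chosen. Listed CpGs of up to 19 reads had 2.72 reads on average in CpG-poor windows and 3.21 in comparison windows, with SDs over autosomes of 0.0279 and 0.0181. The share of listed CpGs with 1 read was 33.4% in CpG-poor windows (33.4 to 33.5) and 24.6% in comparison windows (24.5 to 24.6). Fewer reads and more CpGs with 1 read were found in CpG-poor windows on 19 of 19 autosomes. With the estimated CpGs without reads included, the means were 2.02 and 2.71 reads. CpG-poor windows supplied 1807059 of the 15107014 autosomal CpGs used and 9.93% of their reads. Their single windows ranged from 2.04 to 7.38 reads per listed CpG, but the central 90% lay between 2.38 and 3.06.

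Within the CpG-poor range, each step towards more listed CpGs went with more reads and fewer CpGs with 1 read. Windows with 150 to under 200 listed CpGs had 2.60 reads per listed CpG and 37.3% of CpGs with 1 read, and those with 200 to under 250 had 2.62 reads and 35.6%. Windows with 250 to under 300 had 2.70 reads and 33.7%, and those with 300 to 350 had 2.80 reads and 31.6%. The level was 82.1%, 84.4%, 84.9% and 84.9% in the same order. It was therefore lowest where CpGs were scarcest, and the 221 windows of that first step also had a gap of 10 kb or more in 45 cases. Over the 6567 windows the Spearman correlation with the number of listed CpGs was 0.396 for reads per listed CpG and 0.162 for the level. The windows share 1 library, and the number of listed CpGs itself depends on depth.

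Methylation was then compared at equal local CpG number, which counts a CpG together with its listed neighbours up to 100 bp away in either direction. Local numbers differed between the groups: 70.5% of the CpGs of CpG-poor windows and 47.8% of those of comparison windows had a local number of 1 or 2, and 0.868% and 5.42% had 10 or more. The 2 groups crossed. Sparse CpGs were less methylated in CpG-poor windows than in comparison windows, and locally dense CpGs were more methylated there. Unlisted CpGs do not enter the local number, and by the estimate above they were more frequent in CpG-poor windows; their part in the differences was not tested.

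CpGs with no other listed CpG within 100 bp had a level of 84.4% in CpG-poor windows (84.3 to 84.5, 743151 CpGs) and 88.1% in comparison windows (88.1 to 88.2, 519530 CpGs), a difference of -3.73 percentage points. The difference ranged from -5.49 to -2.60 over the autosomes and was negative on 19 of 19. At a local number of 2 the levels were 86.4% and 88.3% (difference -1.94, negative on 19 of 19 autosomes), and at 3 they were 86.6% and 87.6% (-0.945, negative on 18 of 19). At 4 the groups did not differ beyond their spread, with 85.7% in CpG-poor windows and 85.8% in comparison windows, and 9 of 19 autosomes had the lower value in CpG-poor windows. Within CpG-poor windows alone, lone CpGs were thus less methylated than CpGs at a local number of 2 or 3, whereas in comparison windows the level was nearly flat over this range.

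From a local number of 6 on, the order was reversed on 19 of 19 autosomes. The level was 81.4% in CpG-poor windows and 76.8% in comparison windows at 6 CpGs, and 78.1% and 59.2% at 8 CpGs. At 10 to 14 CpGs it was 59.2% in CpG-poor windows (58.7 to 59.7, 12015 CpGs) and 22.9% in comparison windows (22.7 to 23.1, 41866 CpGs), a difference of 36.3 points that ranged from 18.4 to 61.6 over the autosomes. In the densest class, 15 or more CpGs, both were low, with 15.5% in CpG-poor windows (3674 CpGs) and 2.72% in comparison windows (2.67 to 2.76, 86753 CpGs). That class has no upper limit and rests on 208 CpG-poor windows, and its level ranged from 2.56% to 76.2% over the autosomes in CpG-poor windows, so it is the least certain of these values.

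**Figure D3:**
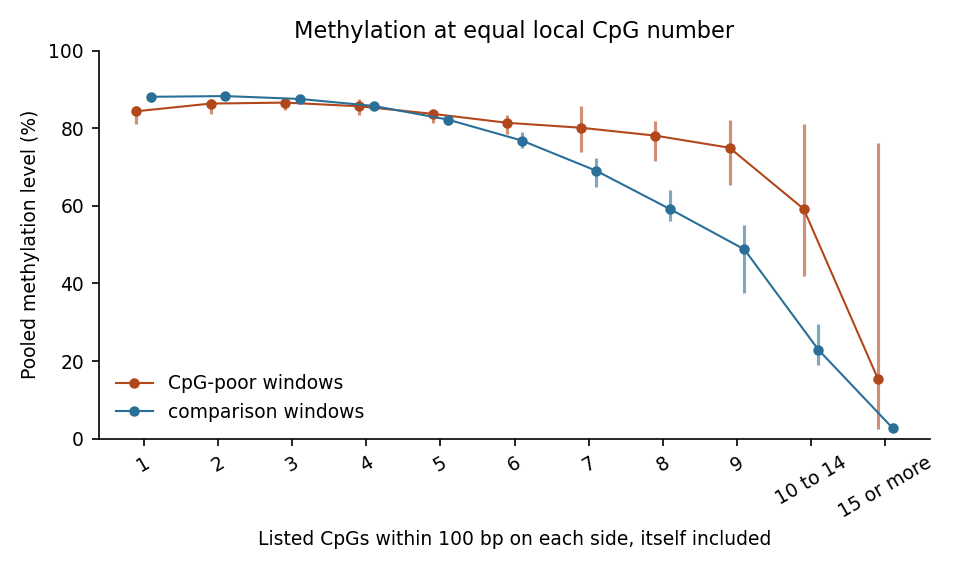
Pooled methylation level (vertical axis, percent) by local CpG number (horizontal axis) in CpG-poor and comparison windows. Points are pooled over autosomes and vertical lines span the lowest to the highest of the 19 autosomes. The groups cross at 4 to 5 CpGs, and at 10 to 14 CpGs they stand at 59.2% and 22.9%.

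Averaged over local numbers in the proportions of the CpG-poor windows, these opposite differences largely cancelled. The level was then 84.7% in CpG-poor windows and 85.9% in comparison windows, a difference of -1.19 points (mean of the autosomes -1.17 ± 0.680, SD, negative on 19 of 19). Chromosomes 17 and 7 had the most negative differences, with -2.82 and -2.74 points. Without these chromosomes the difference was -1.05 points. The average depended on the limit of 19 reads: without any limit it was -12.3 points, and -0.0725 when the window with the most reads, described at the end, was also left out. Split by local number, the difference was -2.94 points at 1 or 2 CpGs and 14.6 points at 6 or more. With no limit on reads and without that window the same values were -3.36 and 13.6; with that window included, the value at 6 or more was -16.4. Counting CpGs over 250 bp on each side gave -3.98 points at 1 or 2 CpGs and 2.70 at 6 or more. The class limits were kept, so 6 or more CpGs over this wider distance include sparser CpGs. The values at 100 bp and at 250 bp thus describe different sets of CpGs.

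The lower level of sparse CpGs was of similar size at every depth of the CpG. At a local number of 1 or 2, CpGs with 1 read had a level of 85.9% in CpG-poor windows and 88.8% in comparison windows. CpGs with 5 to 9 reads had 84.9% and 87.9%, and those with 10 to 19 reads had 83.5% (83.3 to 83.7) and 86.6% (86.4 to 86.8). The difference at equal local number was between -3.04 and -2.91 points in all 6 classes of read number. The lower level was also spread over many windows. Taken window by window over CpGs of this kind, the median level was 85.5% in CpG-poor windows (quartiles 83.2% and 87.5%) and 88.4% in comparison windows (quartiles 86.4% and 90.1%). A level under 80% among these sparse CpGs was found in 580 CpG-poor windows (8.83%) and 34 comparison windows (0.857%). The same level followed the number of listed CpGs beyond the CpG-poor range: it was 82.8% in windows with 150 to under 200 listed CpGs, 84.1% with 200 to under 250, 85.1% with 250 to under 300 and 86.4% with 300 to 350. It was 87.5% with over 350 and under 500, 88.2% with 500 to 700, 87.7% with over 700 and up to 1000, and 85.6% over 1000. It thus peaked in the comparison range and was lower again in the CpG-richest windows.

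Reads at equal local number were lower in CpG-poor windows at every local number. Lone CpGs had 2.49 reads in CpG-poor windows and 2.73 in comparison windows, a ratio of 0.911 with an SD of 0.0125 over autosomes. At a local number of 9 the means were 3.11 and 4.07 reads, a ratio of 0.765, and at 15 or more they were 4.69 and 5.34. Ratios were below 1 on 19 of 19 autosomes at each local number up to 14 and on 13 of 19 at 15 or more. From 4 to 9 CpGs the mean stayed between 3.03 and 3.13 reads in CpG-poor windows, whereas it climbed with each step in comparison windows, from 3.32 reads at 4 CpGs to 4.07 at 9. Weighted to the local numbers of the CpG-poor windows, the ratio was 0.909 (SD 0.0105 over autosomes). With no limit on reads it was 2.32, and 0.878 without the window with the most reads.

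The share of CpGs with 1 read showed the same picture. It was 38.9% in CpG-poor windows and 33.1% in comparison windows at a local number of 1, and 26.2% and 15.1% at 9. At equal local number the difference was 5.68 points, with an SD of 0.642 over autosomes, and it was positive on 19 of 19. The windows were chosen by the number of listed CpGs, which is lower where reads are fewer, so these differences in reads are partly built into the choice of windows.

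**Figure D4:**
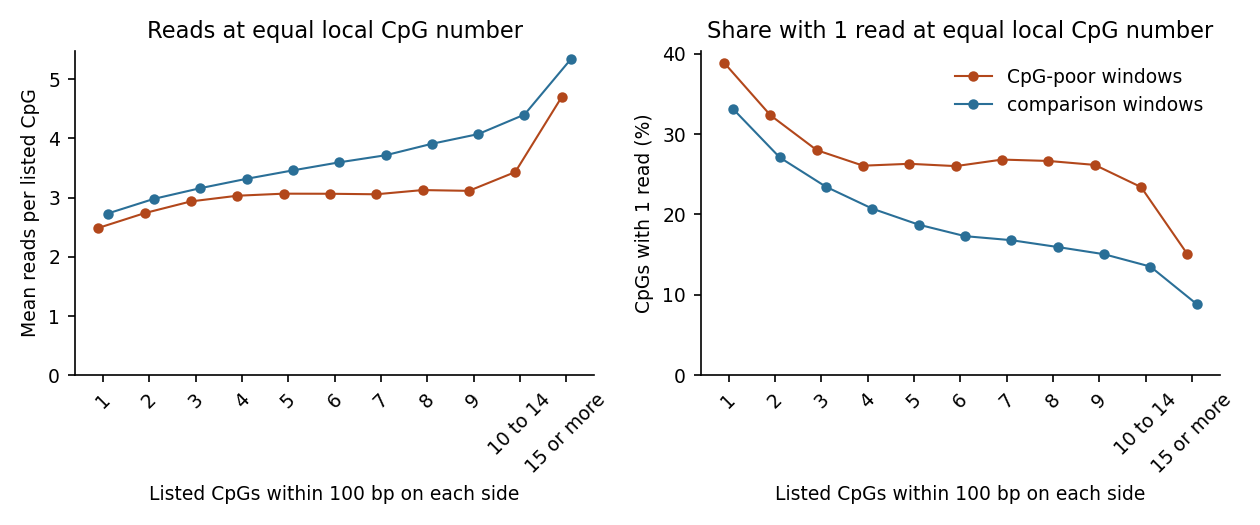
Mean reads per listed CpG (left) and percent of listed CpGs with 1 read (right) by local CpG number, pooled over the autosomes, in CpG-poor and comparison windows. In CpG-poor windows the reads are flat at 3.03 to 3.13 from 4 to 9 CpGs, while they climb to 4.07 at 9 CpGs in comparison windows.

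Low-methylated stretches were rare in CpG-poor windows. A stretch was a run of at least 4 CpGs with 5 or more reads each, whose running level over 3 CpGs was under 50%, with gaps of up to 500 bp. There were 551 stretches in the 6567 CpG-poor windows and 3384 in the 3966 comparison windows, or 0.305 and 1.43 per 1000 listed CpGs. At least 1 stretch was found in 467 CpG-poor windows (7.11%) and in 2192 comparison windows (55.3%); of all autosomal windows 48.4% held one. CpGs of 5 to 19 reads, from which stretches are mostly built, made up 15.6% of the CpGs in CpG-poor windows and 22.5% in comparison windows. Per 1000 of those CpGs there were 1.96 and 6.34 stretches, so the gap was narrower on that basis but of the same direction. Stretches per window were lower in CpG-poor windows on 19 of 19 autosomes. Within the CpG-poor range a stretch was found in 6.79% of windows with 150 to under 200 listed CpGs, 2.38% with 200 to under 250, 5.02% with 250 to under 300 and 13.7% with 300 to 350.

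The stretches of CpG-poor windows were also smaller and less completely unmethylated. They had a median of 7 CpGs of 5 or more reads (quartiles 5 and 12) over 359 bp, against 13 CpGs (6 and 36) over 654 bp in comparison windows. Their median level was 21.7% in CpG-poor windows (quartiles 6.43% and 32.5%) and 8.0% in comparison windows (2.44% and 27.6%). Stretches with 30 or more CpGs of 5 or more reads numbered 30 in CpG-poor windows and 1002 in comparison windows. They were found in 0.457% and 23.4% of windows, against 26.9% of all autosomal windows. This size class leaves out CpGs of fewer reads and so depends on depth. Inside stretches the mean coverage was close, at 5.48 reads per listed CpG in CpG-poor windows and 5.35 in comparison windows. Stretches need CpGs of 5 or more reads, so high coverage inside them comes with the definition. In both groups the rest of the DNA had fewer reads, with 2.70 in CpG-poor windows and 3.06 in comparison windows.

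Dense CpGs lay inside stretches less often in CpG-poor windows. Of the CpGs with a local number of 10 to 14, 18.5% lay inside stretches in CpG-poor windows and 60.5% in comparison windows. At 15 or more the shares were 68.5% and 93.4%. By the definition of a stretch these shares depend on level and reads. At 10 to 14 CpGs the levels were 59.2% in CpG-poor and 22.9% in comparison windows, with means of 3.43 and 4.40 reads. Outside stretches, the levels at 10 to 14 CpGs were 79.7% in CpG-poor windows and 64.5% in comparison windows, and at 6 they were 83.9% and 84.1%. At 6 or more CpGs the difference at equal local number was 14.6 points with all CpGs and 4.20 points outside stretches. At 1 or 2 CpGs it was -2.94 and -3.13 points, so the lower level of sparse CpGs was as large without stretches. Since stretches were defined by low methylation, the values outside them are conditioned on the outcome and are given as a description. Dense CpGs themselves were found in part of the windows: 1522 CpG-poor windows (23.2%) and 2655 comparison windows (66.9%) held a CpG with a local number of 10 or more. Of all autosomal windows 14683 (61.3%) did so.

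Single CpGs with 10 to 19 reads were 0.918% of the CpGs in CpG-poor windows (16589 CpGs) and 1.69% in comparison windows (40012 CpGs). A level under 20% was found in 4.67% of them in CpG-poor windows and in 35.6% in comparison windows. A level over 80% was found in 62.0% in CpG-poor windows and 43.5% in comparison windows. Levels between 20% and 80% made up the rest, 33.3% in CpG-poor windows and 20.8% in comparison windows. Well-read CpGs of CpG-poor windows were thus less often under 20%, and both other classes held larger shares. These CpGs were not matched by local CpG number.

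Windows with a low level held a stretch less often in the CpG-poor group. Of the CpG-poor windows with a level under 80%, 395 of 703 (56.2%) held no stretch, whereas 5 of 1417 comparison windows (0.353%) did so. Stretches were rarer in CpG-poor windows in general: 92.9% of all CpG-poor windows and 44.7% of all comparison windows held none. With stretches built from CpGs of 3 or more reads the counts were 331 and 2, so the difference was also present with this lower minimum. In the 395 windows the lowest level was 65.1% and the median 77.7%. The level there was 76.3% at a local number of 1 or 2 and 77.8% at 6 or more, against 85.3% and 73.2% in all CpG-poor windows. Since these windows were picked for a low level and for holding no stretch, lower sparse CpGs and higher dense CpGs follow from the choice, and the values are a description. Reads per listed CpG averaged 2.71, close to the 2.72 of all CpG-poor windows, and 13 of the 395 had a gap of 10 kb or more. They were unevenly distributed over chromosomes. On chromosome 7, 85 of 355 CpG-poor windows (23.9%) were of this kind, on chromosome 17 41 of 245 (16.7%) and on chromosome 19 10 of 84 (11.9%), whereas the other autosomes had between 0.448% and 7.08%. The median level of CpG-poor windows was 83.1% on chromosome 7 and 84.6% on chromosome 17.

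Of these 395 windows 155 had no other of the 395 directly beside them, and 164 lay in series of 3 or more consecutive windows of this kind. CpG-poor windows of any level lay on both sides of 308 of the 395. The longest series, picked after their values were seen, was 7 windows on chromosome 1 from 119400001 to 120100000 with a pooled level of 75.8% (74.6 to 77.0) and 2067 listed CpGs. A series of 6 windows on chromosome 4 from 113100001 to 113700000 had a level of 73.1% (71.7 to 74.4), with single windows between 69.4% and 75.2%. Another of 6 windows on chromosome 5 from 146300001 to 146900000 had 76.1%. Series of the same length had levels nearer to 80%. They lay on chromosome 1 from 27100001 to 27700000, with 77.9%, and on chromosome 3 from 43200001 to 43800000, with 78.7%. The levels of neighbouring CpG-poor windows were moderately correlated, with a Spearman correlation of 0.418 over 5232 pairs of adjacent CpG-poor windows. This value describes windows that share the library and the chromosome.

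The 5 CpG-poor windows with the lowest levels each held 1 or 2 stretches and differed in the level outside them. All coordinates follow the positions of the deposited table on mm9, which may be shifted by 1 bp. The lowest level was 35.3% (Wilson interval 30.4 to 40.4) on chromosome 14 from 4200001 to 4300000, with 151 listed CpGs and 346 reads. Outside its single stretch this window still had 42.3%. On chromosome 2 from 81800001 to 81900000 the level was 38.1% (35.4 to 40.9), and 76.0% outside its 2 stretches. On chromosome 17 from 93600001 to 93700000 it was 39.3% (36.7 to 42.0), and 82.4% outside its single stretch. On chromosome 6 from 114500001 to 114600000 it was 40.2% (37.0 to 43.4), and 61.4% outside its 2 stretches, in a window that had a gap of 19614 bp without listed CpGs. On chromosome 3 from 158200001 to 158300000 it was 41.1% (38.3 to 43.9), and 85.1% outside its 2 stretches. In the windows on chromosomes 17 and 3 the rest of the DNA thus had levels near the 85.5% of all CpG-poor DNA outside stretches, whereas the windows on chromosomes 14 and 6 were also low outside theirs.

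The longest of these stretches was the one on chromosome 17, which ran over 5213 bp from 93598192 to 93603404. It held 92 CpGs of 5 or more reads with a level of 3.81% (2.63 to 5.48), and its 161 listed CpGs averaged 5.55 ± 3.26 reads (SD over CpGs). The next by number of CpGs lay on chromosome 18 from 89937841 to 89939382, with 73 CpGs and a level of 3.15% (1.97 to 4.98), in a window that had 41.8% in all and 83.4% outside the stretch. That on chromosome 3 from 158223927 to 158225691 had 65 CpGs and 3.04% (1.82 to 5.03). The stretch on chromosome 16 from 16599197 to 16600995 had 62 CpGs and 5.66% (4.06 to 7.84), and the one on chromosome 4 from 146649203 to 146650169 had 57 CpGs and 12.2% (9.92 to 14.9). Island-like DNA thus did occur in CpG-poor surroundings, with coverage of 5.55 to 8.26 reads per listed CpG in these 5 stretches.

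The number of stretches in a window did not exceed 7. That count was found on chromosome 4 from 3000001 to 3100000, the first window of that chromosome with a listed CpG, where 67 of the 202 listed CpGs had more than 19 reads and the level was 71.6%. A window on chromosome 5 from 80200001 to 80300000 held 6 stretches, with 18 CpGs above 19 reads and a level of 71.1%. Windows on chromosome 1 from 184900001 to 185000000 (4 stretches, 71.1%), chromosome 10 from 57600001 to 57700000 (3 stretches, 69.8%) and chromosome 11 from 28200001 to 28300000 (3 stretches, 64.3%) followed. The last 2 were taken from 6 windows tied at 3 stretches, as those with the most listed CpGs in their stretches, 58 and 53; the others had 19 to 39, and levels of 56.3% to 76.5%. The windows on chromosomes 1 and 10 had gaps of 78571 and 68684 bp, so most of their length held no listed CpG. In the window on chromosome 10, 44 of the 201 listed CpGs had more than 19 reads. Such CpGs can lie in stretches but do not enter the level. The stretches of the window on chromosome 4 held 60 listed CpGs, and 15 CpGs inside stretches entered its level. On chromosome 10 these numbers were 58 and 32. At the other end, the highest levels were 96.5% (95.1 to 97.5) on chromosome 2 from 49000001 to 49100000, 96.2% (94.5 to 97.4) on chromosome 18 from 89200001 to 89300000 and 96.1% (94.6 to 97.2) on chromosome 4 from 109500001 to 109600000. None of these 3 windows held a stretch or a CpG with a local number of 10 or more.

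Coverage of single windows was extreme in a few cases. The highest means were 7.38 reads per listed CpG on chromosome 17 from 13400001 to 13500000, 6.68 on chromosome 8 from 19900001 to 20000000 and 5.97 on chromosome 4 from 145700001 to 145800000, with levels of 80.6%, 82.1% and 73.0%. They had 19, 62 and 19 CpGs above 19 reads. The lowest means were 2.04 on chromosome 12 from 116300001 to 116400000, 2.08 on chromosome 14 from 89800001 to 89900000 and 2.08 on chromosome 6 from 69500001 to 69600000, with levels of 81.3%, 83.7% and 84.8%. Of these 6 windows the one on chromosome 4 had a level below the central 90% of CpG-poor windows, which spanned 76.2% to 90.4%, and the others lay within it. Over all CpG-poor windows reads per listed CpG and level had a Spearman correlation of 0.0141, and over the 6100 without a stretch one of 0.118.

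CpG-poor windows clustered strongly along chromosomes. Of the windows directly beside a CpG-poor window 79.9% were CpG-poor, with a range of 70.2% to 85.4% over autosomes, whereas 27.4% of all autosomal windows were. The share was 75.4% at a distance of 2 windows, 54.5% at 1 Mb, 45.9% at 2 Mb, 32.1% at 5 Mb and 28.7% at 10 Mb, where it was near the share of all windows. Of the CpG-poor windows 5996 (91.3%) had a CpG-poor neighbour on at least 1 side and 4468 (68.0%) on both, and 571 stood alone. Of the comparison windows 2550 (64.3%) had a comparison window on at least 1 side. Of the windows directly beside a comparison window 41.7% were comparison windows and 5.12% were CpG-poor. Of all autosomal windows 16.6% were comparison windows, so windows of both groups had more neighbours of their own group than the share of all windows. The comparison range has many windows on both sides, whereas 295 autosomal windows lay below the CpG-poor range. The neighbour shares and run lengths of the 2 groups are therefore not directly comparable.

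**Figure D5:**
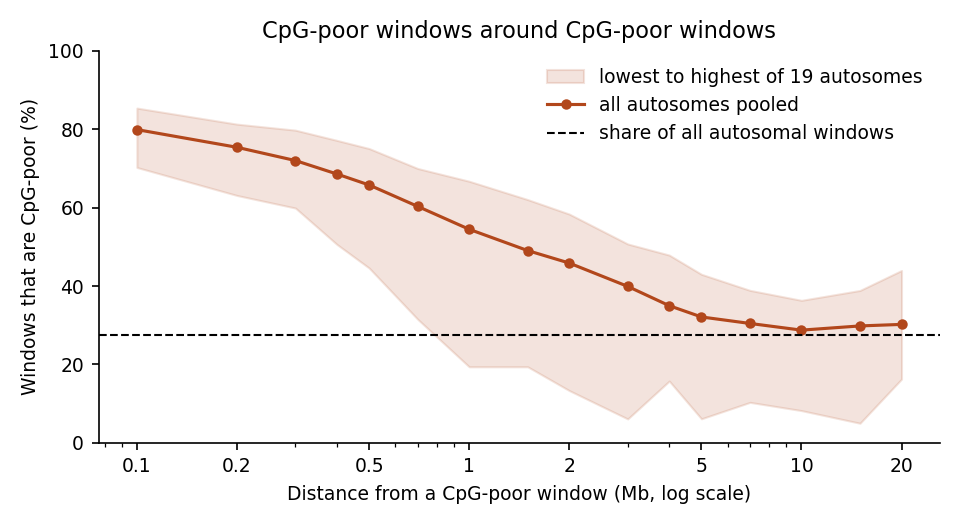
Percent of windows that are CpG-poor (vertical axis) at a given distance from a CpG-poor window (horizontal axis, Mb, log scale), pooled over the autosomes and as the range over 19 autosomes. The share falls from 79.9% for adjacent windows to 28.7% at 10 Mb, near the 27.4% of all autosomal windows marked by the dashed line.

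The CpG-poor windows formed 1335 uninterrupted runs with a median of 2 windows and a mean of 4.92. Runs of 10 or more windows numbered 192 and held 57.7% of the CpG-poor windows, and 73 runs of 20 or more held 33.0%. The 3966 comparison windows, 16.6% of all autosomal windows against 27.4% for CpG-poor windows, formed 2314 runs, of which 1 reached 10 windows. Of the 2175 windows that bordered a run of CpG-poor windows, 71.4% had over 350 and under 500 listed CpGs. A further 17.4% had 500 to 700, 5.75% had over 700 and 5.47% had under 150.

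The longest run covered 11.2 Mb on chromosome 1 from 108900001 to 120100000. It comprised 112 windows with 181 to 338 listed CpGs, a pooled level of 83.2% (82.9 to 83.5) and 2.66 reads per listed CpG, and held 4 stretches in all. A second run of 6.5 Mb on the same chromosome, from 100100001 to 106600000, had a level of 84.0% (83.6 to 84.3) and 2 stretches. Runs of 4.5 Mb on chromosome 5 from 58500001 to 63000000 and on chromosome 14 from 88900001 to 93400000 had levels of 85.7% (85.3 to 86.1) and 84.9% (84.5 to 85.3), with 1 stretch each. A run of 4.3 Mb on chromosome 2 from 39100001 to 43400000 had 84.5% (84.1 to 84.9) and 4 stretches, and a run of equal length lay on chromosome 4. These runs of megabases thus held between 1 and 4 detectable stretches each at this depth. All CpG-poor windows had 0.0839 stretches per window. Shorter runs of 4.2 Mb on chromosome 1 and 4 Mb on chromosome 14 held 0 and 5 stretches.

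Position within a run went with methylation. At equal local CpG number, windows with CpG-poor neighbours on both sides had a level 2.13 points below that of CpG-poor windows that stood alone, and it was lower on 18 of 19 autosomes (mean of autosomes -2.08 ± 0.994, SD). CpGs with a local number of 1 or 2 had 84.7% in windows with both neighbours CpG-poor, 85.9% with 1 such neighbour and 87.6% in windows alone. Dense CpGs went the other way, with 75.2%, 71.2% and 67.7% at a local number of 6 or more. The levels in both of these classes were pooled and not matched by local number inside the class. The mix of local numbers may differ between the sets, and its part was not tested. Stretches were found in 5.60% of windows with both neighbours CpG-poor, 9.62% with 1 and 12.3% of those alone. Reads at equal local number were 0.951 times those of windows that stood alone, and lower on 19 of 19 autosomes. The number of listed CpGs also differed between these sets, with a median of 264 where both neighbours were CpG-poor and 317 in windows alone, and its part in the differences was not tested.

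The share of CpG-poor windows varied between and along autosomes. It was 26.7% ± 5.40 (SD over 19 autosomes), with the highest value of 36.0% on chromosome 3 and the lowest of 14.4% on chromosome 19. With each autosome divided into 10 equal parts of its listed length, numbered from the centromeric end, between 24.5% and 34.5% of windows were CpG-poor in each of parts 1 to 8. In parts 9 and 10, at the far end, the shares were 13.7% and 14.2%. Single autosomes differed widely, with up to 61.1% CpG-poor windows in part 9 and 55.2% in part 10.

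A single CpG-poor window dominated the uncapped reads. On chromosome 2 from 98500001 to 98600000, 63 of 286 listed CpGs had more than 19 reads, and the window held 8221430 CpG reads, 62.2% of those in all CpG-poor windows. Its CpGs of up to 19 reads had a level of 81.2% and 2.58 reads per listed CpG, within the range of the other windows. CpGs above 19 reads were 1261 of the 1808320 listed CpGs of CpG-poor windows. They held 62.9% of the reads of all CpG-poor windows and 1.80% without that window.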

How the data were processed

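The deposited table gives, per the file headers, chromosome, position, total reads and methylated reads of each CpG; both are raw counts per CpG, with no normalization by the authors. Bowtie and the genome build mm9 are named in the submitters' processing notes; trimming, duplicate removal, conversion rate, merging of strands and the base from which positions are counted are details not given in the sources used here. The table held 15544856 CpGs, each with 1 or more reads and a median of 3, and 60995624 CpG reads.

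CpGs of up to 19 reads were pooled per window with scipy 1.17.1, pandas 2.3.3 and numpy 2.4.6 under Python 3.11.15; plots used matplotlib 3.10.9. Local CpG numbers formed 11 classes (1 to 9, 10 to 14, 15 or more). For values at equal local number, comparison windows were weighted to the reads (levels) or CpGs (reads, 1-read shares) of CpG-poor windows in each class. The scripts were tested on simulated data. The windows and comparisons were chosen with earlier results of these data known. Regions were named by rule: the 5 longest runs, the 5 lowest and 3 highest levels, the 5 windows with the most stretches, the 3 highest and 3 lowest in reads per CpG, and the 5 stretches with the most CpGs. The window with the most reads and the series of low windows were picked after their values were seen. Alternatives covered the read limit and minimum, window size, grid and class, gaps, local distance and stretch definition. Leaving out chromosomes 7 and 17, dividing stretches by CpGs of 5 to 19 reads, leaving out the most-read window and all alternatives of the differences at a local number of 1 or 2 and of 6 or more were chosen after seeing the data.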

Additional observations from a re-analysis of the deposited data

How the results depend on the processing

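No paired analysis was possible because 1 library was analysed, so no groups share replicate numbers and no replicate could be left out. Of 91 alternatives 24 left a value inside its 95% counting interval (for the number of windows, within 1.5 times), 65 moved it outside and 2 turned its direction. These intervals are narrower than the spread over autosomes, so small moves count too. Lifting the read limit could not change the number of windows, the stretches or the share with a CpG-poor neighbour. These unchanged values are among the 24. Dividing stretches by CpGs of 5 to 19 reads changes the denominator and is among the 65. Differences and ratios are CpG-poor windows against comparison windows, and the cause of each change was not tested unless given. With no upper limit on reads the level was 65.1% (84.7% with the limit), reads per listed CpG 7.31 (2.72), the level difference -12.3 points (-1.19), the difference -3.97 at local numbers of 1 or 2 (-2.94) and -16.4 at 6 or more (14.6), and the reads ratio 2.32 (0.909); the 2 last are the changes of direction. Without the most-read window as well these were 84.1%, 2.76, -0.0725, -3.36, 13.6 and 0.878, so that window set both directions. With 150 to 250 listed CpGs there were 1948 windows, with a level of 84.2%, 2.62 reads, 35.8% of CpGs with 1 read, a CpG-poor neighbour for 64.8% (91.3%), 0.159 stretches per 1000 CpGs (0.305), differences of -2.28, -4.17 and 18.2, a reads ratio of 0.886 and a 1-read difference of 7.39 (5.68). With 50 kb windows there were 13458, with 85.4%, 2.71 reads, 33.5%, 90.5%, 0.207 stretches, differences of -1.13, -2.73 and 15.2, and a ratio of 0.908. Shifting the grid gave 84.7%, 2.71 reads, -1.24 and 0.908. Without windows with gaps of 10 kb the values were 84.8%, 2.71 reads, 14.9 at 6 or more and a ratio of 0.908. Without stretches they were 85.5%, -2.28, -3.13 and 4.20; with CpGs of 3 or more reads 84.2%, -1.15 and 13.9 at 6 or more. Without chromosomes 7 and 17 the differences were -1.05, -2.79 and 15.1. Comparison windows of 700 to 1000 CpGs gave -0.788, -2.42, 12.3, a ratio of 0.90 and a 1-read difference of 6.59. Counting within 250 bp, with the class limits kept and so with sparser CpGs in each class, gave -2.13, -3.98, 2.70, 0.920 and 4.91. Matching also by reads gave -1.31. The estimate with unread CpGs gave 2.02 reads. Stretches per 1000 CpGs were 0.237 as 1 kb bins under 20%, 0.159 at a running level under 30%, 0.589 from CpGs of 3 or more reads, and 1.96 per 1000 CpGs of 5 to 19 reads. In comparison windows the same settings gave 1.57, 1.03, 2.25 and 6.34, against 1.43 in the main setting. At a median of 3 reads, single CpGs have coarse levels and stretches of few CpGs go undetected, more so in CpG-poor windows, where 15.6% of CpGs had 5 to 19 reads, against 22.5% in comparison windows.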

Other observations

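The X chromosome, which is present in part of the sperm only, was kept out of the windows above. Of its 1611 windows 1023 (63.5%) held 150 to 350 listed CpGs, against 27.4% of autosomal windows. Their pooled level was 79.8% with 1.97 reads per listed CpG and 48.9% of CpGs with 1 read. The 112 X windows with 500 to 700 listed CpGs had a level of 65.3%, 2.19 reads and 41.5%. At a local CpG number of 1 or 2 the X levels were 84.6% in windows with 150 to 350 listed CpGs and 87.7% in those with 500 to 700, and at 6 or more they were 44.7% and 18.4%. These X levels were not matched by local number inside each class. Listing depends on depth, so windows with 150 to 350 listed CpGs on the X and on autosomes need not hold equal numbers of CpGs.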
